A study of Mus musculus with 4 samples.

Results

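Chromatin accessibility was examined at 32 germline genes, a set of genes of germ cells and meiosis that is known for promoter DNA methylation outside the germline. A region counted as belonging to a gene when it overlapped the gene itself or the upstream 2 kb, with genes taken from GENCODE M21 on the mouse build GRCm38. By this rule 136 of the 255864 regions in the count table belonged to 30 of the 32 genes, and Syce1 and Tex19.1 had no region. The rule that picks their regions uses gene positions and no count. DNA methylation and transcription were not measured in the files used here, so whether these promoters were methylated or silent in these cells could not be checked, and the genes are called germline genes below.

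The assay was ATAC-seq, in which a transposase cuts open chromatin and places where many cut fragments map are called as accessible regions. It was applied to primary osteoblasts, the bone-forming cells, of 3-day-old C57BL/6 mice. The WT group was wild type, and the TCKO group carried Prx1-Cre with homozygous floxed alleles of Tet1, Tet2 and Tet3. Prx1-Cre is active in limb and part of the skull mesenchyme, so the deletion reaches the cells in which this driver is or was active and can be incomplete in a culture. The deleted exons are not given in the sources used here, so the deletion was not checked. Per the study's methods the cells came from calvarial bone by enzymatic digestion. The labels list 2 samples per genotype and a protocol text names 3 repeats, but the table gives 1 merged count per genotype, 56898657 in WT and 34608167 in TCKO. No spread between animals can be had from it. Each difference below is therefore a value with a 95% interval that covers counting error only, without a replicate check and without a p-value.

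Germline genes encode proteins for germ cell RNA handling, for the piRNA pathway that restrains transposons, for chromosome pairing and recombination in meiosis, and for gamete structure. Many have CpG-rich promoters that become methylated around implantation and stay so in somatic cells, which makes them textbook examples of genes whose repression depends on promoter methylation. Before and beside that methylation, the repressor complex PRC1.6, whose subunits E2F6 and MGA with MAX bind DNA, keeps many of them off. TET enzymes oxidise methylated cytosine and so start its removal. An accessible start is a usual but not a sufficient feature of a transcribed promoter.

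The CpG content of these promoters differed widely, and 6 are shown to make this visible, 3 with a start outside every accessible region and 3 with a start inside one. Each is the 250 bases that precede the GENCODE start on GRCm38, read 5′ to 3′ on the strand of the gene, with every CpG in capitals. The first 3 are the uncovered starts of Hormad1 (chr3:95559427-95559676, plus strand), Sycp1 (chr3:102936101-102936350, minus strand) and Zp3 (chr5:135979849-135980098, plus strand), which hold 19, 17 and 5 CpG. The E-box of MGA and MAX, CACGTG, reads caCGtg in them and occurs 2 times in Hormad1 and 1 time each in Sycp1 and Zp3.
Hormad1: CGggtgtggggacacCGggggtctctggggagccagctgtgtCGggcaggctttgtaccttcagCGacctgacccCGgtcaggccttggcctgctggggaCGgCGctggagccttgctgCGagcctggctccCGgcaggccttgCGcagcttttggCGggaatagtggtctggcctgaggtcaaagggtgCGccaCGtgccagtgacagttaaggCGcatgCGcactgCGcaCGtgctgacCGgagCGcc
Sycp1: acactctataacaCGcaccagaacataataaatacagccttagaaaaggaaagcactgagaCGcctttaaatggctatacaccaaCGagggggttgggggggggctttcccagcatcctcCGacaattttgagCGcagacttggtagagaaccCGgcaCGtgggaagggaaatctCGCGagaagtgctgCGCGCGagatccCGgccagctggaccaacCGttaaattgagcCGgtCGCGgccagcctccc
Zp3: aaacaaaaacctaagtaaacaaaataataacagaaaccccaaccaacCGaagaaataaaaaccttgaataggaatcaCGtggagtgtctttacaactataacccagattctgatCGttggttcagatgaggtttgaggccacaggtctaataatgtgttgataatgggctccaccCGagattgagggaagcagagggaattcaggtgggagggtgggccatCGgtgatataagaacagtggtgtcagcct
The covered starts are those of Mei4 (chr9:81863420-81863669), Tdrkh (chr3:94413023-94413272) and Rec8 (chr14:55617787-55618036), all on the plus strand, with 12, 22 and 9 CpG and no CACGTG in these windows.
Mei4: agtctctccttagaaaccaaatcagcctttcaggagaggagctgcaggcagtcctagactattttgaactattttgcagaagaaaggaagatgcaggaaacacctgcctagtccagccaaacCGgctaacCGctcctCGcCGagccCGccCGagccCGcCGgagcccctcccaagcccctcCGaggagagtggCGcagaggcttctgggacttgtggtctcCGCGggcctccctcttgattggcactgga
Tdrkh: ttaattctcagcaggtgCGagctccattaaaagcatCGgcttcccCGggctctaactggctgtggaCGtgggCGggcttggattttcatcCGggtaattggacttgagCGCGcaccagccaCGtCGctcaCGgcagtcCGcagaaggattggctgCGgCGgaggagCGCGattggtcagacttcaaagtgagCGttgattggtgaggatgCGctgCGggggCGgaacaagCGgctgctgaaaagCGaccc
Rec8: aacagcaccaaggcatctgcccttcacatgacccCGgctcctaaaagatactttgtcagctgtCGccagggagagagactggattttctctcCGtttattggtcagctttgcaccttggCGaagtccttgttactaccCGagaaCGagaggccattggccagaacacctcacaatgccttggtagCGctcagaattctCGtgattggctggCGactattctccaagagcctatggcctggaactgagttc

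Hormad1 and Sycp1 thus had more CpG in this window than Mei4 and Rec8, although no region covered their starts. The other pair went the opposite way, since Tdrkh, with a covered start, had the most CpG of those shown (22). Zp3, with an uncovered start, had the fewest (5). Across the genes, 5 of 32 starts lay in a region, those of Stag3, Tdrd6, Tdrkh, Mei4 and Rec8. Of all 21938 protein-coding genes, 56.5% had a covered start. A gene start without a region means that no peak was called there in either genotype, since the table lists called regions only, and it does not mean that no read was found. At least 1 region lay anywhere in the locus of 30 of 32 genes, against 82.4% of protein-coding genes, so most germline genes had some accessible chromatin in or before the gene. Pooled over the germline loci there were 9.01 regions per 100 kb of locus, against 13.2 for protein-coding genes. Long genes weigh most in the pooled value, such as Mei4 (342 kb, 3.78 per 100 kb) and Sycp1 (118 kb, 2.51). Single genes ran from 0 for Syce1 and Tex19.1 to 28.0 for Piwil4, so sparse regions were not a trait of every gene.

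Promoters were then divided by their CpG content in the 500 bp on either side of the start. A class of high CpG had an observed over expected ratio above 0.75 with at least 55% GC, a class of low CpG had a ratio under 0.48, and the rest were intermediate. The median ratio was 0.590 for the germline genes and 0.553 for protein-coding genes. In the intermediate class 3 of 19 germline genes had a covered start (Tdrd6, Mei4 and Rec8), whereas 5512 of 6620 protein-coding genes did (83.3%). The 16 uncovered ones were Dazl, Ddx4, Mael, Sycp1, Sycp2, Sycp3, Syce1, Smc1b, Hormad1, Tdrd1, Mov10l1, Asz1, Brdt, Dmc1, Sohlh2 and Dpep3. They were 16 of the 1108 protein-coding genes of this class whose start was uncovered. In the high class 2 of 3 were covered, Stag3 and Tdrkh but not Slc25a31, against 4948 of 5424 (91.2%). In the low class 0 of 10 were covered (Tex101, Tex19.1, Tdrd9, Piwil1, Piwil2, Piwil4, Spo11, Nobox, Figla and Zp3), against 1936 of 9894 (19.6%). The widest difference between the germline genes and protein-coding genes thus lay in the intermediate class. Within the germline genes the median ratio was 0.744 at covered starts and 0.565 at uncovered ones.

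**Figure D1:**
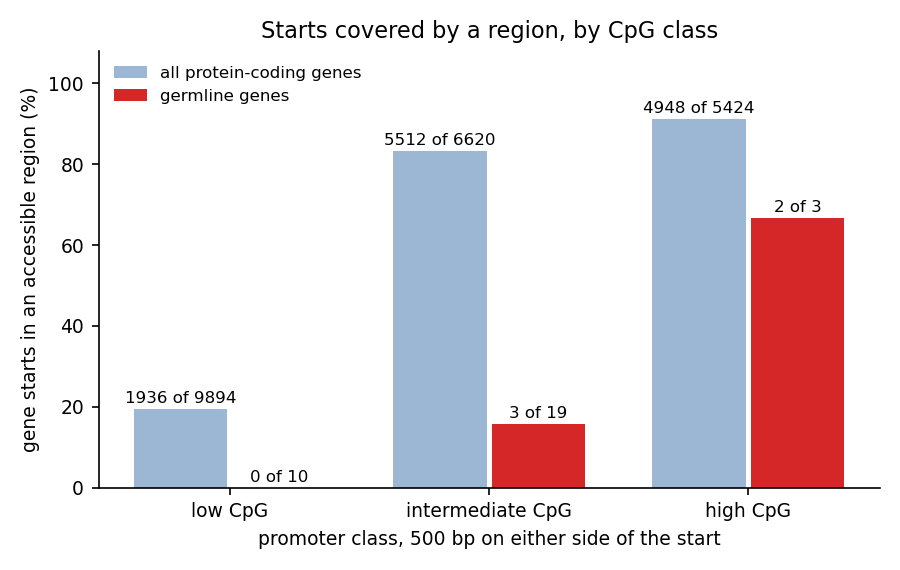
Share of gene starts that lie in an accessible region (vertical axis, percent) by CpG class of the promoter, for all protein-coding genes (blue) and the germline genes (red). The numbers over the bars are genes with a covered start of genes in the class, and 3 of 19 germline genes of intermediate CpG were covered against 5512 of 6620.

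The distance from each start to the nearest region showed how far the uncovered starts were from open chromatin. Among the 27 uncovered genes its median was 2202 bp. Smc1b and Spo11 had a region ending 15 and 16 bp before the start, and Dazl had one beginning 419 bp inside the gene. With those 3, 8 of 32 genes had a region within 500 bp, against 65.6% of protein-coding genes. Within 2 kb there were 18, against 74.3%. At the far end, the start of Asz1 lay 18514 bp from the nearest region, that of Piwil2 13458 bp and that of Sycp1 10822 bp. The 2 genes without a region had their nearest one 5172 bp (Syce1) and 2202 bp (Tex19.1) away.

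**Figure D2:**
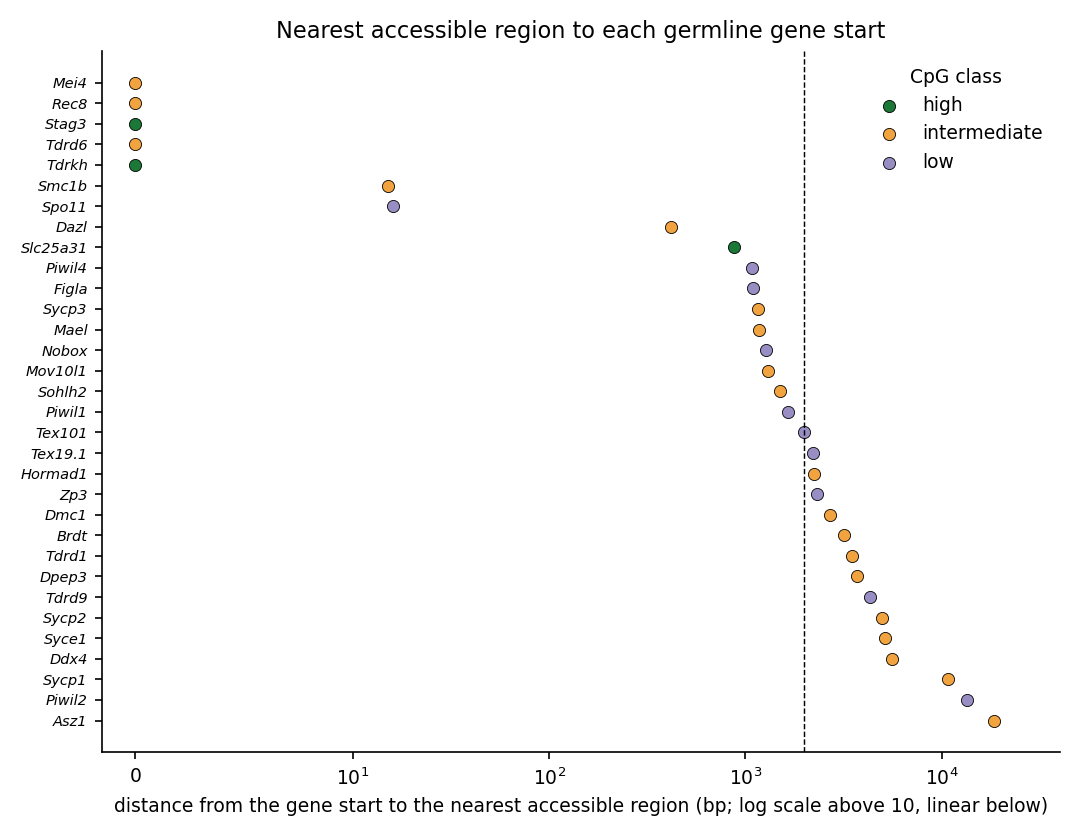
Distance in bp from the gene start to the edge of the nearest accessible region (horizontal axis, logarithmic above 10 and linear below) for each of the 32 genes, coloured by CpG class of the promoter, with a dashed line at 2 kb. The 5 genes at 0 have the start inside a region, and Asz1 is farthest at 18514 bp.

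Annotation of the start affected some of these genes. When the start of any annotated transcript was used, 9 of 32 genes were covered, against 64.7% of protein-coding genes. The 4 added genes were Dazl, Tdrd1, Piwil4 and Brdt, whose covered transcript starts lay 744, 4503, 22260 and 28678 bp inside the gene. RefSeq starts were given for 29 of the genes and 5 were covered, namely Stag3, Tdrd1, Tdrkh, Piwil4 and Mei4. The RefSeq start of Rec8 is 129 bp downstream of the GENCODE start and lay outside the region. The RefSeq start of Piwil1 lay 33722 bp inside the GENCODE gene and that of Tex101 4625 bp inside, and neither was covered.

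Sequence motifs of the PRC1.6 subunits were counted in the RefSeq promoters from 250 bases before to 50 after the start, on both strands. The counts are of genes with a RefSeq promoter, and some genes have more than 1, as Tdrd1 has 3. CACGTG was present for 13 of 29 germline genes (44.8%) and for 9.18% of 16522 protein-coding genes. These 13 were Ddx4, Mael, Sycp1, Sycp3, Stag3, Hormad1, Tdrd1, Tdrd9, Piwil1, Mov10l1, Slc25a31, Brdt and Zp3. Among uncovered starts of the intermediate class, 8 of 16 germline genes held it, against 91 of 784 protein-coding genes (11.6%). Among covered starts it was present for 1 of 4 germline genes, Stag3, which like Tdrkh is of the high CpG class. Mei4 and Rec8, the others of these 4, are of the intermediate class. Of protein-coding genes with a covered start, 12.8% of the high class and 11.6% of the intermediate class held it. The 6 promoters printed above were picked after the values were seen and do not represent these shares. The letters TCCCGC, which E2F6 can bind, were present for 12 of 29 germline genes (41.4%) and for 29.2% of protein-coding genes. In the uncovered intermediate class it was 7 of 16 against 36.6%. The 2 motifs share no overlapping letters by which 1 match could count as both. A match describes the letters only, and no factor binding was measured here.

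TCKO counts were compared with WT after scaling TCKO to the WT total, a factor of 1.64, as the log2 of the ratio with 1 count added to each. The 136 regions held 22234 WT and 14718 TCKO counts, with medians of 68 and 53.5 per region. The median log2 ratio was 0.11 and the values ran from -1.97 to 2.06. Over all 255864 regions the median was 0.06. Of the germline gene regions, 59 (43.4%) were below 0, close to 45.4% of all regions.

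At least 2-fold lower in TCKO were 3 regions (2.21%), against 4.51% of all regions. At least 2-fold higher were 19 regions in 9 genes (14.0%), against 12.3% of all regions. Both shares were near those of the whole table, so the germline genes as a group did not stand apart by them. The interval of the ratio lay above 0 for 48 regions (35.3%, against 29.5% of all regions) and below 0 for 14 (10.3%, against 18.9%). The interval lay wholly past a 2-fold increase for 7 regions, where 3.82% of all regions did, and wholly past a 2-fold decrease for 0, where 0.654% did. Peaks were called in both genotypes in 75 regions (55.1%, against 56.8% of all), in WT only in 45 (33.1%, against 33.0%) and in TCKO only in 16 (11.8%, against 10.2%). WT also had more reads in all, and the part of depth in these calls was not tested. Of the 16 regions called in TCKO only, 10 were among the 19 higher ones, where 76.4% of all such regions were higher. The 3 lower regions were all called in WT only. A region called in 1 genotype only is in the table through that genotype, so its ratio is selected to lean that way. The counting interval does not allow for this selection.

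**Figure D3:**
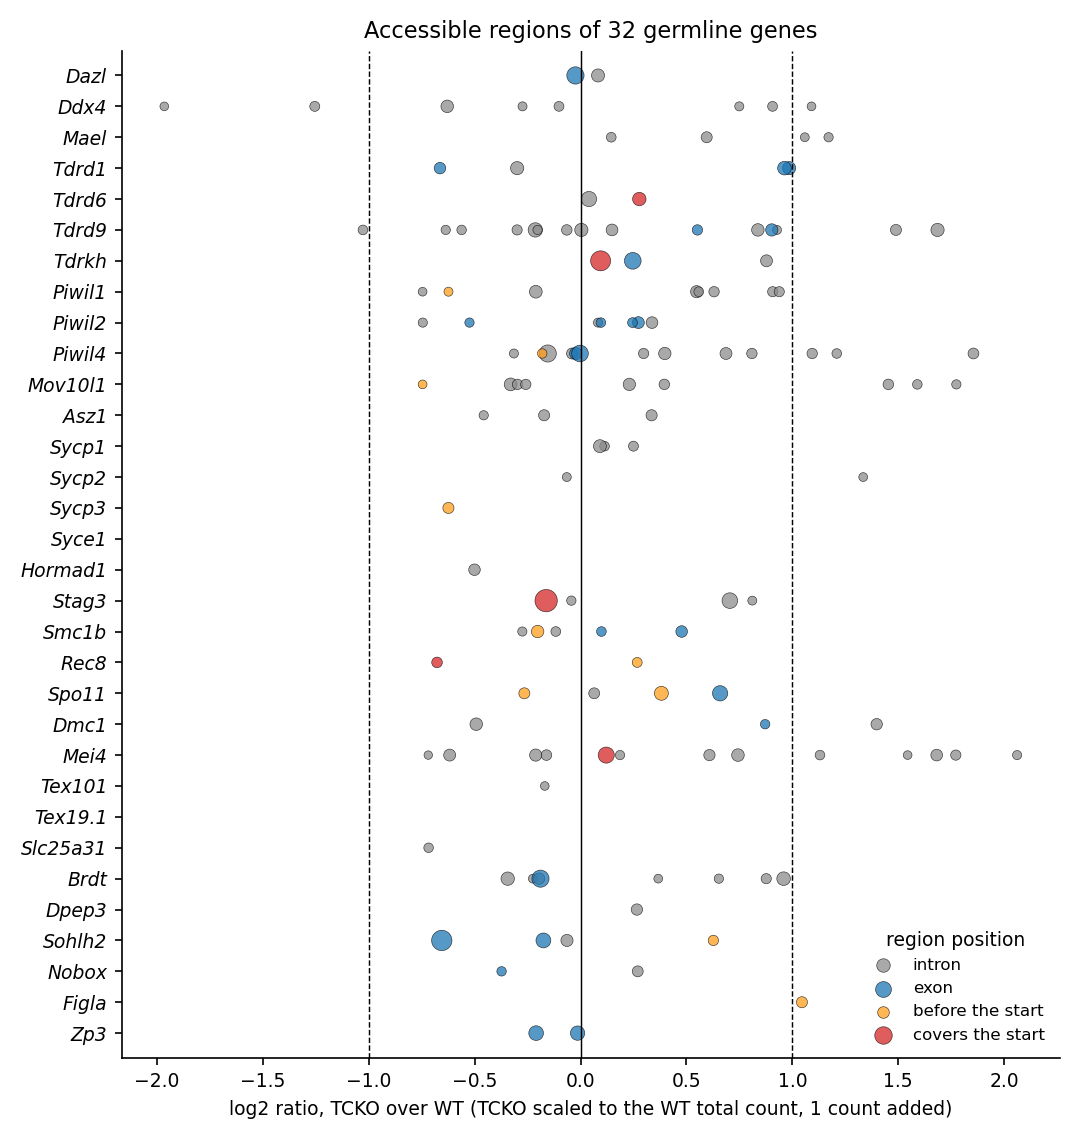
log2 ratio of TCKO over WT for each of the 136 regions (horizontal axis, TCKO scaled to the WT total, 1 count added), 1 row per gene, with point area growing with the summed count and colour giving the position in the gene. The solid line marks no difference and the dashed lines a 2-fold difference, and the 5 red regions over a start lie between -0.68 and 0.28.

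The regions past a fold of 2 lay away from the starts of their own genes. Of the 19 higher regions 18 were in introns and 1 before the gene, and the nearest edge of any of them was 1098 bp from its gene start. The 3 lower regions were intronic too, the nearest 5582 bp from its gene start. Other annotated starts could be nearer, as that of Gm37837, 800 bp from the midpoint of a higher region in Mei4. None of the 23 exonic regions and none of the 5 start regions passed a fold of 2. Of all regions over a protein-coding start, 0.488% were at least 2-fold lower and 0.567% at least 2-fold higher. Introns held 98 of the 136 regions. The shares over all exonic and all intronic regions were not computed, so these positions cannot be read as particular to the germline genes. The medians were 0.10 in exons, 0.17 in introns, 0.09 at starts and -0.19 in the 10 regions before the start. The higher regions were small, with a median summed count of 73 against 148.5 for those within a fold of 2, and so were the lower ones (75). Among regions with under 100 counts, 10 of 54 were higher (18.5%, against 21.9% of all such regions) and 3 were lower (5.56%, against 6.29%). Among regions with at least 100 counts, 9 of 82 were higher (11.0%, against 7.19%) and 0 were lower (against 3.57%). Of the 28 regions with 200 or more counts in WT or in TCKO, 15 were below 0 and 1 passed a fold of 2. The median region was 235 bp long (243 bp over all regions) and held 2 CpG, and 36 of the 136 held none.

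**Figure D4:**
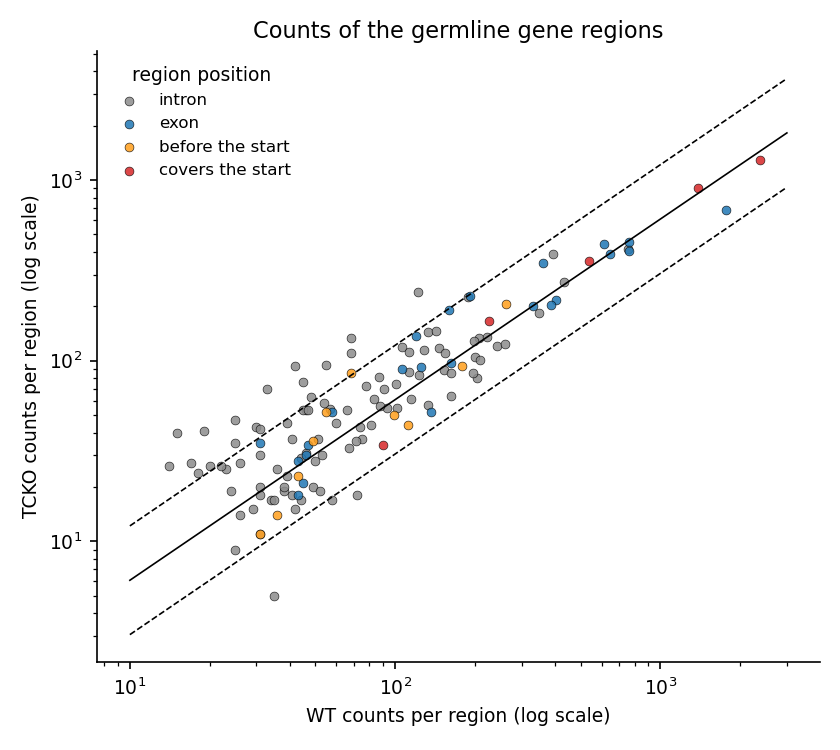
Read counts of the 136 regions in WT (horizontal axis) and TCKO (vertical axis, both logarithmic), coloured by position in the gene. The solid line is the ratio of the library totals and the dashed lines a 2-fold difference from it, and the regions past the lines are mostly intronic with counts up to 240.

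The 5 regions over a start are described first, because a start is where promoter activity would be seen. Their median log2 ratio was 0.09, and over the 11278 regions covering a protein-coding start it was -0.11. None was past a fold of 2, as was usual at starts, where 0.488% were at least 2-fold lower and 0.567% at least 2-fold higher. Stag3 (ENSMUSG00000036928, chr5:138280240-138312393), a meiotic cohesin subunit, had the strongest of them at chr5:138279784-138280527. It held 2370 WT and 1288 TCKO counts, a log2 TCKO/WT ratio of -0.16 (-0.26 to -0.06), and its WT count per kb was at the 97.0th percentile of start regions. The start of Gpc2, another protein-coding gene, lies 150 bp from its midpoint, so its reads cannot be assigned to either gene. Tdrkh (ENSMUSG00000041912, chr3:94413273-94434668), which encodes a tudor protein needed to trim piRNA precursors, had 1384 and 899 counts at chr3:94412854-94413554, a ratio of 0.09 (-0.03 to 0.22), at the 85.3th percentile. The start of the gene model Gm42463 lies 197 bp from its midpoint. Both regions stood in the upper part of all start regions by WT count per kb, and the other 3 stood lower.

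Mei4 (ENSMUSG00000043289, chr9:81863670-82206007), needed to form meiotic double-strand breaks, had 538 WT and 356 TCKO counts at chr9:81863425-81864030, a log2 TCKO/WT ratio of 0.12 (-0.07 to 0.31). Its WT count per kb was at the 39.8th percentile of start regions, and its summit was 14.5-fold over local background in WT and 13.0-fold in TCKO. Tdrd6 (ENSMUSG00000040140, chr17:43615335-43630299), a tudor protein of the chromatoid body, had 225 and 166 counts at chr17:43629647-43630523, a ratio of 0.28 (-0.01 to 0.57). That region held 79 CpG and stood at the 2.56th percentile, with summit folds of 4.80 and 4.65. Rec8 (ENSMUSG00000002324, chr14:55618037-55625395), the meiotic kleisin of cohesin, had 90 and 34 counts at chr14:55617917-55618149, a ratio of -0.68 (-1.25 to -0.12), at the 8.44th percentile. Its peak was called in WT only, 3.50-fold over background. For 3 of the 5 regions the intervals include 0, and those of Stag3 and Rec8 lie below it.

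Per locus, with all regions of a gene summed, the 30 genes had a median log2 ratio of 0.12, and the 18073 protein-coding loci with regions had -0.03. Of the germline loci 9 of 30 were below 0, against 56.2% of protein-coding loci. The 2 sets differ in make-up, since 5 of 32 germline genes had a covered start against 56.5% of protein-coding genes. Regions over a protein-coding start had a median of -0.11, and the part of this make-up in the locus difference was not tested. No germline locus was at least 2-fold lower (0.338% of protein-coding loci were), and 1, Figla, was at least 2-fold higher (1.89% were). Figla was at 1.05 with the total count and under 1 with TMM (0.97), DESeq2 factors (0.98), the loess trend removed (0.86), 10 counts added (0.96), the background level (0.44), no scaling (0.33) or 25 kb on either side (0.20). The interval lay below 0 for 4 loci (Ddx4, Sycp3, Hormad1 and Sohlh2) and above 0 for 12. The shares of protein-coding loci with such intervals were not computed, so these counts cannot be read as particular to the germline genes. The signs of the locus ratios depend on the scaling. The median of all regions moves from 0.06 to -0.64 without scaling and to -0.54 when the peak caller background sets the scale. The median of the germline gene regions moved alongside, to -0.60 and -0.49. Which scale is right cannot be told apart from the table.

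**Figure D5:**
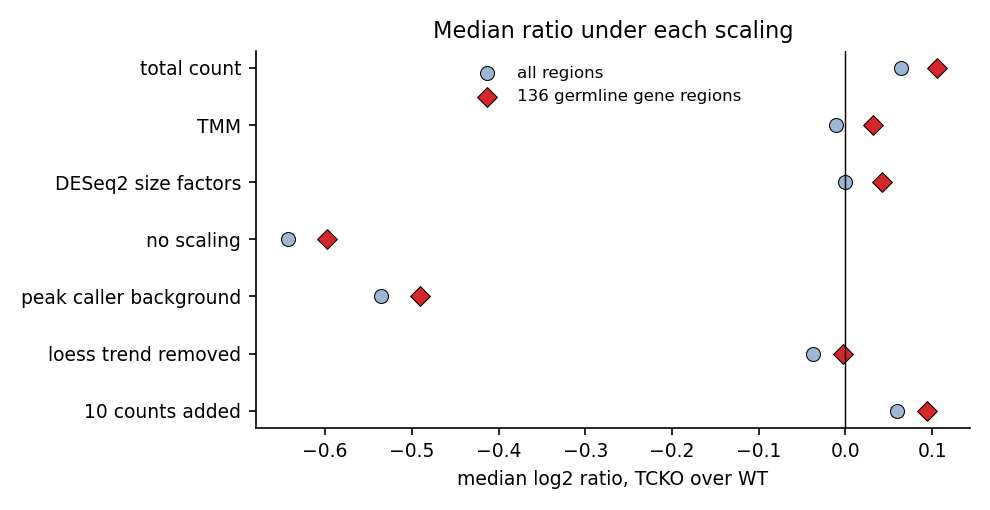
Median log2 ratio of TCKO over WT (horizontal axis) under each scaling or setting (rows) for all 255864 regions (circles) and the 136 germline gene regions (diamonds). The diamonds lie to the right of the circles in each row, at 0.11 against 0.06 with the total count and -0.60 against -0.64 without scaling. A change of scale factor moves both medians by nearly the same amount, so rows that differ only in scale are not separate checks of this offset.

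Ddx4 and Dazl encode germ cell RNA proteins, an RNA helicase and an RNA binding protein, and are standard germ cell markers. Their 10 regions had a median of -0.06. Dazl (ENSMUSG00000010592, chr17:50279395-50293636) had a CpG-dense region of 59 CpG, with 73.6% GC, at chr17:50292638-50293217, beginning 419 bp inside the gene. It held 759 WT and 454 TCKO counts, a log2 TCKO/WT ratio of -0.02 (-0.19 to 0.14), with summit folds of 9.13 and 9.66. This CpG-dense stretch was thus called as accessible in both genotypes, downstream of an uncovered start. A second region of Dazl at chr17:50291608-50291879 held 208 and 134 counts, a ratio of 0.08 (-0.23 to 0.40). Summed over both, Dazl had 967 and 588 counts, a ratio of -0.00042 (-0.15 to 0.15). Ddx4 (ENSMUSG00000021758, chr13:112598333-112652475) summed to 481 and 246 counts over 8 intronic regions, a ratio of -0.25 (-0.47 to -0.03). It held 2 of the 3 lower regions. At chr13:112609046-112609143 there were 35 and 5 counts, a ratio of -1.97 (-3.40 to -0.78), and at chr13:112646544-112646893 there were 72 and 18, a ratio of -1.25 (-2.02 to -0.55). Both were called in WT only. A further region, chr13:112608162-112608858, held 204 and 80 counts, a ratio of -0.63 (-1.01 to -0.26). In the other direction, chr13:112635419-112635520 held 18 and 24 counts, a ratio of 1.09 (0.26 to 2.00), and was called in TCKO only.

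The piRNA pathway genes had 68 of the 136 regions. They encode PIWI proteins that carry piRNAs (Piwil1, Piwil2 and Piwil4), tudor proteins that bind them (Tdrd1, Tdrd6, Tdrd9 and Tdrkh), the helicase Mov10l1 that feeds precursors into processing, and the nuage or mitochondrial proteins Mael and Asz1. The group held 9379 WT and 6818 TCKO counts, and its regions had a median ratio of 0.24. At least 2-fold higher were 10 of 68 regions and lower was 1, where 12.3% and 4.51% of all regions were. The 10 loci were all above 0 with the total count, from 0.0068 for Asz1 to 0.67 for Mael, but 9 of 10 with TMM or DESeq2 factors, 1 of 10 with the background level and 0 of 10 without scaling.

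Tdrd9 (ENSMUSG00000054003, chr12:111971559-112068854), a piRNA helicase with a tudor domain, had 15 regions with 1535 WT and 1247 TCKO counts, a log2 TCKO/WT ratio of 0.42 (0.31 to 0.53). Its region at chr12:111992667-111992977 held 122 and 240 counts, a ratio of 1.69 (1.38 to 2.01), and was the only one of at least 200 counts that passed a fold of 2. A second, chr12:111982583-111982850, held 55 and 95 counts, a ratio of 1.49 (1.03 to 1.98). The same gene held a lower region at chr12:112053860-112054026 with 58 and 17 counts, a ratio of -1.03 (-1.82 to -0.28). It thus had regions past a fold of 2 in both directions, as Ddx4 did. Its pair of regions with the most WT counts had intervals that include 0. At chr12:111976783-111977596 there were 223 and 136 counts, a ratio of 0.0038 (-0.30 to 0.31), and at chr12:112001099-112001604 there were 349 and 183, a ratio of -0.21 (-0.47 to 0.04).

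Piwil4 (ENSMUSG00000036912, chr9:14696230-14740733), the nuclear PIWI protein of fetal male germ cells, had 13 regions with 2227 and 1528 counts, a log2 TCKO/WT ratio of 0.17 (0.08 to 0.27). Its regions of most counts had intervals that include 0. At chr9:14698908-14699445 there were 756 and 413 counts, a ratio of -0.15 (-0.33 to 0.02), and at chr9:14717668-14718708, which covers internal transcript starts, there were 644 and 391, a ratio of -0.0026 (-0.18 to 0.18). Its 3 higher regions were weak, at chr9:14711739-14712078 (42 and 94 counts, ratio 1.85, 1.36 to 2.40), chr9:14726158-14726275 (30 and 43, ratio 1.21, 0.57 to 1.90) and chr9:14738394-14738562 (48 and 63, ratio 1.09, 0.57 to 1.65). Mov10l1 (ENSMUSG00000015365, chr15:88982909-89055152) had 9 regions with 695 and 512 counts, a ratio of 0.28 (0.11 to 0.44), and 3 of them were higher. These were chr15:89004389-89004570 (45 and 76 counts, ratio 1.45, 0.94 to 2.00), chr15:89009344-89009459 (25 and 47, ratio 1.59, 0.93 to 2.32) and chr15:89044064-89044298 (19 and 41, ratio 1.77, 1.05 to 2.60), the latter pair called in TCKO only. Its region of most counts, chr15:88989339-88989889, went the other way with 209 and 101 counts, a ratio of -0.33 (-0.67 to 0.01).

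Mael (ENSMUSG00000040629) had 169 WT and 164 TCKO counts over 4 regions, a locus ratio of 0.67 (0.36 to 0.98). Its 2 higher regions were chr1:166209423-166209528 (25 and 35 counts, ratio 1.17, 0.47 to 1.94) and chr1:166227365-166227490 (20 and 26, ratio 1.06, 0.27 to 1.93), both called in TCKO only. Tdrd1 (ENSMUSG00000025081) had 729 and 591 counts over 4 regions, a locus ratio of 0.41 (0.26 to 0.57). Its region at chr19:56869467-56870080, at the gene end, held 191 and 227 counts, a ratio of 0.96 (0.69 to 1.24), just within a fold of 2. So was chr19:56830437-56830760, which covers an internal transcript start of Tdrd1, with 159 and 192 counts, a ratio of 0.98 (0.69 to 1.29). The other 2 Tdrd1 regions were below 0, with 136 and 52 counts at chr19:56838944-56839261 (-0.66, -1.13 to -0.21) and 243 and 120 at chr19:56856454-56856924 (-0.30, -0.62 to 0.01). Tdrkh as a locus had 2101 and 1459 counts, a ratio of 0.19 (0.09 to 0.29), with an exonic region at chr3:94423398-94424128 of 611 and 441 counts, a ratio of 0.25 (0.07 to 0.42). Tdrd6 had 660 and 438 counts, a locus ratio of 0.13 (-0.05 to 0.30), and its intronic region chr17:43619113-43619674 held 435 and 272, a ratio of 0.04 (-0.18 to 0.26). Piwil1 had 585 and 442 counts over 8 regions, a locus ratio of 0.31 (0.13 to 0.49), with 200 and 105 at chr5:128733971-128734270, a ratio of -0.21 (-0.55 to 0.13). Piwil2 had 444 and 294 counts over 7 regions, a locus ratio of 0.12 (-0.09 to 0.33), and Asz1 had 234 and 143 over 3 regions, a locus ratio of 0.0068 (-0.29 to 0.31).

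The synaptonemal complex and axis genes had few accessible regions. These are Sycp1, Sycp2, Sycp3 and Syce1, whose proteins build the zipper between paired chromosomes, and Hormad1, a protein of the chromosome axis. Together they had 7 regions with 587 WT and 341 TCKO counts, a median region ratio of 0.09, and no start was covered. Sycp3 had a single region of 112 and 44 counts, 1162 bp before the start, with a log2 TCKO/WT ratio of -0.62 (-1.13 to -0.13). Hormad1 had a single region of 133 and 57 counts, 2229 bp inside the gene, with a ratio of -0.50 (-0.95 to -0.06). Sycp1, whose gene is 118 kb long, had 3 regions with 294 and 195 counts, a locus ratio of 0.12 (-0.14 to 0.39). Sycp2 had 2 regions with 48 and 45 counts, a locus ratio of 0.61 (0.04 to 1.21), of which chr2:178391156-178391328 was higher with 17 and 27 counts, a ratio of 1.33 (0.52 to 2.25).

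The meiotic cohesin genes Stag3, Smc1b and Rec8 had 11 regions, a median region ratio of -0.04 and none past a fold of 2. Stag3 as a locus had 2825 and 1726 counts, a log2 TCKO/WT ratio of 0.0065 (-0.08 to 0.09). Its intronic region at chr5:138302957-138303859 held 393 WT and 390 TCKO counts, a ratio of 0.70 (0.50 to 0.91), while its start region lay below 0, so the locus value joins regions of opposite direction. Smc1b, which encodes a meiosis-specific SMC protein, had 418 and 261 counts over 5 regions, a locus ratio of 0.04 (-0.19 to 0.26). The region 15 bp before its start, chr15:85131979-85132440, held 178 and 94 counts and 31 CpG, a ratio of -0.20 (-0.56 to 0.16), and the start of Ribc2 lies 131 bp from its midpoint. Rec8 as a locus had 139 and 70 counts, a ratio of -0.27 (-0.69 to 0.14).

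The recombination genes Spo11, Dmc1 and Mei4 act in making and repairing the programmed breaks of meiosis. Their 20 regions had a median ratio of 0.50, against 0.06 over all regions, in a grouping by role made after the values were seen. At least 2-fold higher were 6 of 20 (12.3% of all regions), 5 of them in Mei4 alone, and 0 were lower (4.51% of all regions). All 3 loci were above 0 with the total count, TMM and DESeq2 factors, and 0 of 3 were with the background level or without scaling. Mei4 held 5 of the 19 higher regions among its 13, and as a locus had 1395 and 1122 counts, a log2 TCKO/WT ratio of 0.40 (0.29 to 0.52). The 3 with an interval wholly past a fold of 2 were chr9:82063948-82064546 (68 and 134 counts, ratio 1.68, 1.28 to 2.12), chr9:82169755-82169963 (15 and 40, ratio 2.06, 1.29 to 2.98) and chr9:82193273-82193438 (33 and 70, ratio 1.77, 1.21 to 2.40). The others were chr9:82027656-82027905 (31 and 42, ratio 1.13, 0.49 to 1.82) and chr9:82181963-82182064 (14 and 26, ratio 1.54, 0.69 to 2.53). All 5 were intronic and at least 163986 bp from the start. Regions called in TCKO only, such as chr9:82169755-82169963, are in the table through TCKO, and their intervals do not allow for that selection.

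Spo11, the enzyme that cuts the DNA, had 810 and 661 counts over 4 regions, a locus ratio of 0.42 (0.28 to 0.57). The region ending 16 bp before its start, chr2:172977450-172977684, held 99 and 50 counts, a ratio of -0.27 (-0.76 to 0.22). The next one, chr2:172976661-172977160, held 261 and 207, a ratio of 0.38 (0.12 to 0.65), and chr2:172986343-172987035 held 362 and 348, a ratio of 0.66 (0.45 to 0.87). Dmc1, the meiotic strand exchange protein, had 296 and 230 counts over 3 regions, a locus ratio of 0.35 (0.11 to 0.60), with a higher region at chr15:79575766-79576069 of 68 and 110 counts, a ratio of 1.40 (0.98 to 1.85).

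Among the other spermatogenic genes, Tex101, Slc25a31, Brdt and Dpep3 had 11 regions with a median ratio of -0.17, none past a fold of 2, and Tex19.1 had none. Brdt (ENSMUSG00000029279), the testis member of the bromodomain BET family, had 1457 and 933 counts over 8 regions, a log2 TCKO/WT ratio of 0.07 (-0.04 to 0.19). Its region chr5:107359263-107359972, with 41 CpG at an internal transcript start, held 763 and 407 counts, a ratio of -0.19 (-0.36 to -0.02). A further pair of Brdt regions went opposite ways, chr5:107346307-107346875 with 259 and 124 counts (ratio -0.34, -0.65 to -0.04) and chr5:107355664-107356322 with 189 and 224 (ratio 0.96, 0.68 to 1.24). Slc25a31, a mitochondrial ADP/ATP carrier of sperm, had 52 and 19 counts in 1 region 879 bp inside the gene, a ratio of -0.72 (-1.48 to 0.01). Dpep3 had 101 and 74 counts (0.27, -0.16 to 0.70) and Tex101 had 26 and 14 (-0.17, -1.10 to 0.75), each in 1 region.

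The remaining genes act in oocytes or in early germ cells. Sohlh2, Nobox and Figla are transcription factors, and Zp3 encodes a protein of the egg coat. Their 9 regions had a median ratio of -0.06. Sohlh2 (ENSMUSG00000027794, chr3:55182028-55209957) was the locus whose interval lay farthest below 0, with 2385 WT and 1043 TCKO counts, a log2 TCKO/WT ratio of -0.48 (-0.58 to -0.37). Its region chr3:55207348-55208510, over an exon 25320 bp from the start, made up most of it with 1774 and 685 counts, a ratio of -0.66 (-0.78 to -0.53), and chr3:55195030-55196493 held 403 and 217, a ratio of -0.18 (-0.41 to 0.06). Its region nearest the start, 1503 bp before it, held 55 and 52 counts, a ratio of 0.63 (0.09 to 1.18). Figla had a single region, chr6:86014827-86015073, 1098 bp before the start, with 68 WT and 86 TCKO counts, a ratio of 1.05 (0.60 to 1.51). Zp3 had 720 and 404 counts over 2 exonic regions, a locus ratio of -0.12 (-0.29 to 0.06), with 332 and 200 at chr5:135982424-135982769 (-0.01, -0.27 to 0.24) and 388 and 204 at chr5:135987390-135987830 (-0.21, -0.45 to 0.03). Nobox had 128 and 82 counts over 2 regions, a locus ratio of 0.07 (-0.32 to 0.47).

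Regions shared with a neighbouring gene were few. The midpoint lay within 1 kb of a start of another gene for 6 of 136 regions, 2 of them at protein-coding genes (Stag3 with Gpc2 and Smc1b with Ribc2), and the other 130 had a median of 0.11. Soft-masked repeat sequence made up a median of 7.57% of the higher regions, 0% of the lower ones and 9.42% of the rest.

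Other genes of the same pathways were set beside the germline genes. Of 20 other piRNA pathway genes, 7 had a covered start (Pld6, Mybl1, Ddx25, Spocd1, Rnf17, Exd1 and Wdr77) and 19 had a region. The median locus ratio was 0.05, 8 of the 19 loci were below 0 and no locus was past a fold of 2. The loci ran from -0.46 (-0.63 to -0.29) for Pnldc1 to 0.79 (0.68 to 0.90) for Tex15, which had 1279 WT and 1341 TCKO counts. Exd1, a partner of PIWI pathway proteins, had the most counts, 2728 in WT and 1769 in TCKO, a ratio of 0.09 (0.01 to 0.18). Its start region held 2156 and 1089, a ratio of -0.27 (-0.37 to -0.16). The start region of Spocd1 was past a fold of 2 with 77 and 96 counts (1.03, 0.60 to 1.47). Of 27 other meiosis genes, 10 had a covered start (Syce2, Msh5, Meiob, Prdm9, Terb1, Hsf2bp, Ccdc155, Mnd1, Psmc3ip and Cpeb1), and the median over 25 loci was 0.05. The 2 past a fold of 2 were both higher, Rad21l with 27 and 54 counts (1.68, 1.06 to 2.38) and Ccnb3 with 29 and 38 (1.08, 0.42 to 1.80). Starts of the intermediate CpG class were covered in 4 of 9 of these piRNA genes and 7 of 17 of these meiosis genes. Uncovered starts of this class were thus found in the wider pathways too, and whether the shares differ from 3 of 19 was not tested.

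Cell identity was checked by starts of marker genes. Among osteoblast markers, the starts of Runx2, Sp7, Alpl, Col1a1, Bglap, Ibsp and Spp1 were covered, and that of Col1a2 was not. The starts of Bglap and Ibsp lay in a WT peak and in no TCKO peak. The Bglap start region held 93 WT and 51 TCKO counts, a ratio of -0.15 (-0.64 to 0.34), an interval that includes 0. The Ibsp start region held 111 WT and 28 TCKO counts, a ratio of -1.25 (-1.86 to -0.68). That of Spp1 held 199 and 205, a ratio of 0.76 (0.48 to 1.04). Of the other cell types that a calvarial digest can hold, 2 of 6 macrophage or osteoclast markers had a covered start (Cd68, and Adgre1 in a WT peak only), 2 of 6 endothelial markers (Tek and Kdr) and 0 of 6 skeletal muscle markers. The Adgre1 start region held 36 WT and 21 TCKO counts, a ratio of -0.06 (-0.83 to 0.71). Of all protein-coding starts 56.5% were covered, and 19.6% of those of low CpG. In that low class 6 of 7 osteoblast, 2 of 6 macrophage or osteoclast, 1 of 5 endothelial and 0 of 4 muscle markers were covered. Whether these shares differ was not tested. The locus ratio was below 0 for Alpl (-0.38), Sp7 (-0.27), Ibsp (-0.15), Bglap (-0.15), Col1a2 (-0.09) and Col1a1 (-0.09), and it was 0.00026 for Runx2 and 0.47 for Spp1. The median locus ratio was 0.05 for the macrophage or osteoclast markers, 0.47 for the endothelial markers and 0.12 for the 4 muscle loci with regions. The summed TCKO and WT counts of a marker cannot tell more cells of a type from more accessible chromatin per cell, and the part of such cells in the germline gene values was not tested.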

How the data were processed

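Primary osteoblasts were profiled by ATAC-seq in 4 samples, 2 per genotype per the labels. According to the study's methods and processing notes, reads were aligned end to end with STAR 2.7.0e to GRCm38, unique reads with fewer than 3 mismatches were kept, replicates were merged and peaks were called with MACS2. A shift of reads for the transposase and the removal of duplicate or mitochondrial reads are not given in the sources used here. Raw read counts of each region, in 1 merged column per genotype, were deposited by the authors. Their deposited peak lists hold the summit's fold (a ratio to local background) and −log10 values of the p-value and the q-value. 21 of 21 chromosome sequences of the reference were long enough for the coordinates in the files, which count from 1 here.

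The members and gene lists were chosen with earlier results of these data known, and the grouping by role and the 6 printed promoters were chosen after the values were seen. Every member is named, with values in full for regions over a start, past a fold of 2 or with at least 200 counts. The log2 ratio compares the scaled TCKO count with the WT count after 1 is added to both, and its 95% interval is the Wilson interval of the share of reads that came from TCKO. Intervals cover counting error only, and the table totals set their precision. With merged columns no model across replicates was fitted. TMM factors came from edgeR 4.0.16 and size factors from DESeq2 1.42.0 in R 4.3.3, with other steps in Python 3.11.15. The peak caller background scale came from solving the fold and p-value of each summit for its background. The ratio, interval, loess and background steps were tested on simulated data. Promoter sequences were read from GRCm38, and RefSeq promoters of the same build served for the motifs. RefSeq starts were an alternative added after seeing the data. A marker gene of the osteoblast list is not reported here.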

Additional observations from a re-analysis of the deposited data

How the results depend on the processing

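No paired analysis was possible because each genotype has a single merged count column, and for the same reason no replicate could be left out. The median of the germline gene regions was -0.60 without scaling and -0.49 with the peak caller background, and that of the loci was -0.59 and -0.48. With those 2 scales 28 and 21 regions were at least 2-fold lower and 4 and 6 higher, where 25.6% and 19.9% of all regions were lower and 3.17% and 3.91% higher. With the loess trend removed 12 of the 136 regions were higher, where 8.82% of all regions were. At a fold of 1.5 there were 16 lower and 43 higher, and at a fold of 3 there were 1 and 7. The shares of all regions at these folds were not computed, so these counts cannot be read as particular to the germline genes. At a fold of 2 the whole table also held more higher than lower regions, 12.3% against 4.51%. With the interval wholly past a fold of 2 there were 0 lower and 7 higher, where 0.654% and 3.82% of all regions were. Within 2 kb of the start 18 genes had a region. A region within 500 bp raised the covered starts to 8, and any transcript start to 9. In the window of 250 before to 50 after the start, 7 promoters were of high CpG.

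The median of the regions was 0.03 with TMM, 0.04 with DESeq2 factors, -0.0031 with the loess trend removed and 0.09 with 10 counts added. Of the 30 locus ratios, 5 changed sign with TMM, 3 with DESeq2 factors, 6 with the loess trend removed, 20 without scaling, 18 with the background and 9 with 25 kb on either side. Covered starts numbered 5 in WT peaks and 4 in TCKO peaks, or 4 and 3 at a −log10 q-value of at least 5, and stayed 5 and 4 with equal numbers of peaks from each list.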

Other observations

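A further pair of gene groups was read in the same way. Genes of late spermatids and eggs, such as protamines and egg coat proteins, had 4 of 24 starts covered, those of Zpbp, Gdf9, Bmp15 and Npm2, and 19 of the 24 had promoters of the low CpG class. Of the 24 genes, 15 had a region, with a median locus log2 ratio of -0.04. Gdf9, an oocyte growth factor, had 1660 WT and 961 TCKO counts in 1 region over its start, a ratio of -0.07 (-0.19 to 0.04). Smcp with 59 and 78 counts (1.11, 0.63 to 1.61) and Acr with 42 and 58 (1.16, 0.61 to 1.75) were the loci past a fold of 2.

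Genes of the PRC1.6 repressor complex had all 14 starts covered, 13 of them in the high CpG class, where 91.2% of protein-coding starts were covered, with a median locus ratio of -0.08 and none past a fold of 2. Of the 14 loci 8 were below 0. E2f6 as a locus had 2348 WT and 1199 TCKO counts, a ratio of -0.25 (-0.35 to -0.15). Its start region held 728 and 460 counts, a ratio of 0.05 (-0.11 to 0.22). Mga had 2206 and 1046 counts over 5 regions, a locus ratio of -0.36 (-0.47 to -0.25). Max, the partner of MGA, had 3530 and 1783 counts over 4 regions, a locus ratio of -0.27 (-0.35 to -0.19), and Rybp had 1928 and 1372 over 10 regions, a ratio of 0.23 (0.13 to 0.33).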
